A study of Mus musculus with 10 samples.

Results

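Glutathione, peroxiredoxins, thioredoxins and metallothioneins form the thiol-based antioxidant defence of a cell. Their genes were taken here as all genes whose only symbol on the array is that of a glutathione transferase, glutathione peroxidase, peroxiredoxin, thioredoxin or thioredoxin-like gene, metallothionein, glutathione synthesis gene, superoxide dismutase, catalase, Nqo1, a heme oxygenase, Nfe2l2, Keap1 or Srxn1. The rule found 70 genes among the 18193 measured. It used gene names alone and no expression value. Where a gene had several probe sets, the brightest on average over all 10 arrays stood for it. Prdx1, Prdx5, Prdx6, Gsta1 and Gstp2 have no single-symbol probe set here and were not analysed.

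Expression was measured on 10 Affymetrix arrays of mouse cells. Per the labels, 3 arrays (labelled iPS) held induced pluripotent stem cells, obtained by infecting neural stem cells of adult brain with a pMX retrovirus for mouse Oct4, whose colonies were picked by Oct4-GFP and expanded on irradiated embryonic fibroblasts with leukaemia inhibitory factor (LIF) in the medium. Another 3 (labelled iPS-derived NSC) held neural stem cells that had been differentiated out of iPS cells of this kind, and 4 (brain NSC) held uninfected neural stem cells grown from adult mouse brain. The source of all 3 groups was OG2 mice, transgenic for Oct4-eGFP, that carried Rosa26 neo/lacZ and were crossed with ICR females, so the reporter and the lacZ marker are shared by the controls. The labels give no age beyond adult, and give neither the number of clones nor any word on separate cultures or animals within a group, so p values measure only a spread between samples that may be technical.

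As background, glutathione is a tripeptide made by glutamate cysteine ligase (Gclc and Gclm) and glutathione synthetase (Gss) and kept reduced by glutathione reductase (Gsr). Transferases attach it to electrophiles, glutathione peroxidases use it to reduce hydroperoxides, and peroxiredoxins reduce peroxides with electrons from thioredoxin. Metallothioneins are small cysteine-rich proteins that bind zinc and copper, with Mt3 known as the form of the brain. Nrf2, the product of Nfe2l2, switches on many of these genes when it escapes Keap1, which marks it for degradation.

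Levels are the authors' RMA values in log2 units, and differences are log2 differences with the standard error (SE) from limma, whose p values were adjusted over all 18193 genes. A gene is said to rise, fall or be called where the adjusted p was under 0.05 and the difference at least 2-fold. The marker genes contradict the names of 2 groups. Pou5f1, which encodes Oct4, averaged 13.29 in the arrays labelled iPS-derived NSC and 4.66 in those labelled iPS, while Fabp7, a gene of neural stem cells, averaged 4.43 and 14.17. Zfp42 ran with Pou5f1 (12.44 against 3.54) and Olig2 with Fabp7 (6.53 against 12.78). Over marker lists, 10 of 10 pluripotency genes were higher and 7 of 8 neural stem cell genes lower in the arrays labelled iPS-derived NSC than in those labelled iPS, as were 3 of 8 astrocyte genes, with 1 higher, while 1 of 7 microglia genes was higher. The labels were kept as deposited, and every direction below that involves either group rests on labels that these markers contradict. Of 16 fibroblast markers, which feeder cells would carry, 5 were higher and 2 lower in the arrays labelled iPS-derived NSC than in those labelled iPS. Their mean level spanned 5.57 to 6.46 over the arrays labelled iPS-derived NSC, highest in replicate 1, against 5.50 to 5.52 in those labelled iPS and 5.49 to 5.63 over brain NSC; their part in the results was not tested. Brain NSC replicate 4 stood apart: over all genes it correlated at 0.992 with each array labelled iPS and at 0.990 to 0.992 with brain NSC replicates 1 to 3, while replicates 1 to 3 correlated with the arrays labelled iPS at 0.983 to 0.988. In such bulk samples, fewer cells of a type and less RNA per cell cannot be told apart.

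The antioxidant genes split into rises and falls of similar number. In the arrays labelled iPS-derived NSC, 14 of 70 members were higher and 16 lower than in those labelled iPS, or 42.9%, where 25.3% of all genes were called (10.8% higher and 14.4% lower). Against brain NSC, 14 were higher and 12 lower, or 37.1%, where 25.4% of all genes were called (11.3% higher and 14.0% lower). Between the arrays labelled iPS and brain NSC, 1 member was higher and 0 were lower, or 1.43%, where 1.84% of all genes were called (0.951% higher and 0.89% lower). Without brain NSC replicate 4 the members higher there numbered 3, with Gclm and Mt3 beside Txndc5, while the arrays labelled iPS-derived NSC had 14 higher and 13 lower than brain NSC. All genes called between the arrays labelled iPS and brain NSC also grew without that array, from 335 to 537. The growth among the members is thus not read as a trait of theirs. At any size, 57, 54 and 17 members had a limma adjusted p under 0.05 in these comparisons in turn, where 61.1%, 62.7% and 20.4% of all genes did. The median difference of the members was -0.01, 0.03 and 0.04 in these comparisons in turn, beside 0.12, 0.13 and 0.01 for all genes. The comparisons share arrays, the first 2 those labelled iPS-derived NSC, so 25 members called in both (13 higher, 12 lower) are not independent observations. In total 31 members were called in 1 or both, and 39 were called in none of the 3 comparisons. Such overlaps were not counted over all genes, so these counts are not read as a trait of the members.

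**Figure D1:**
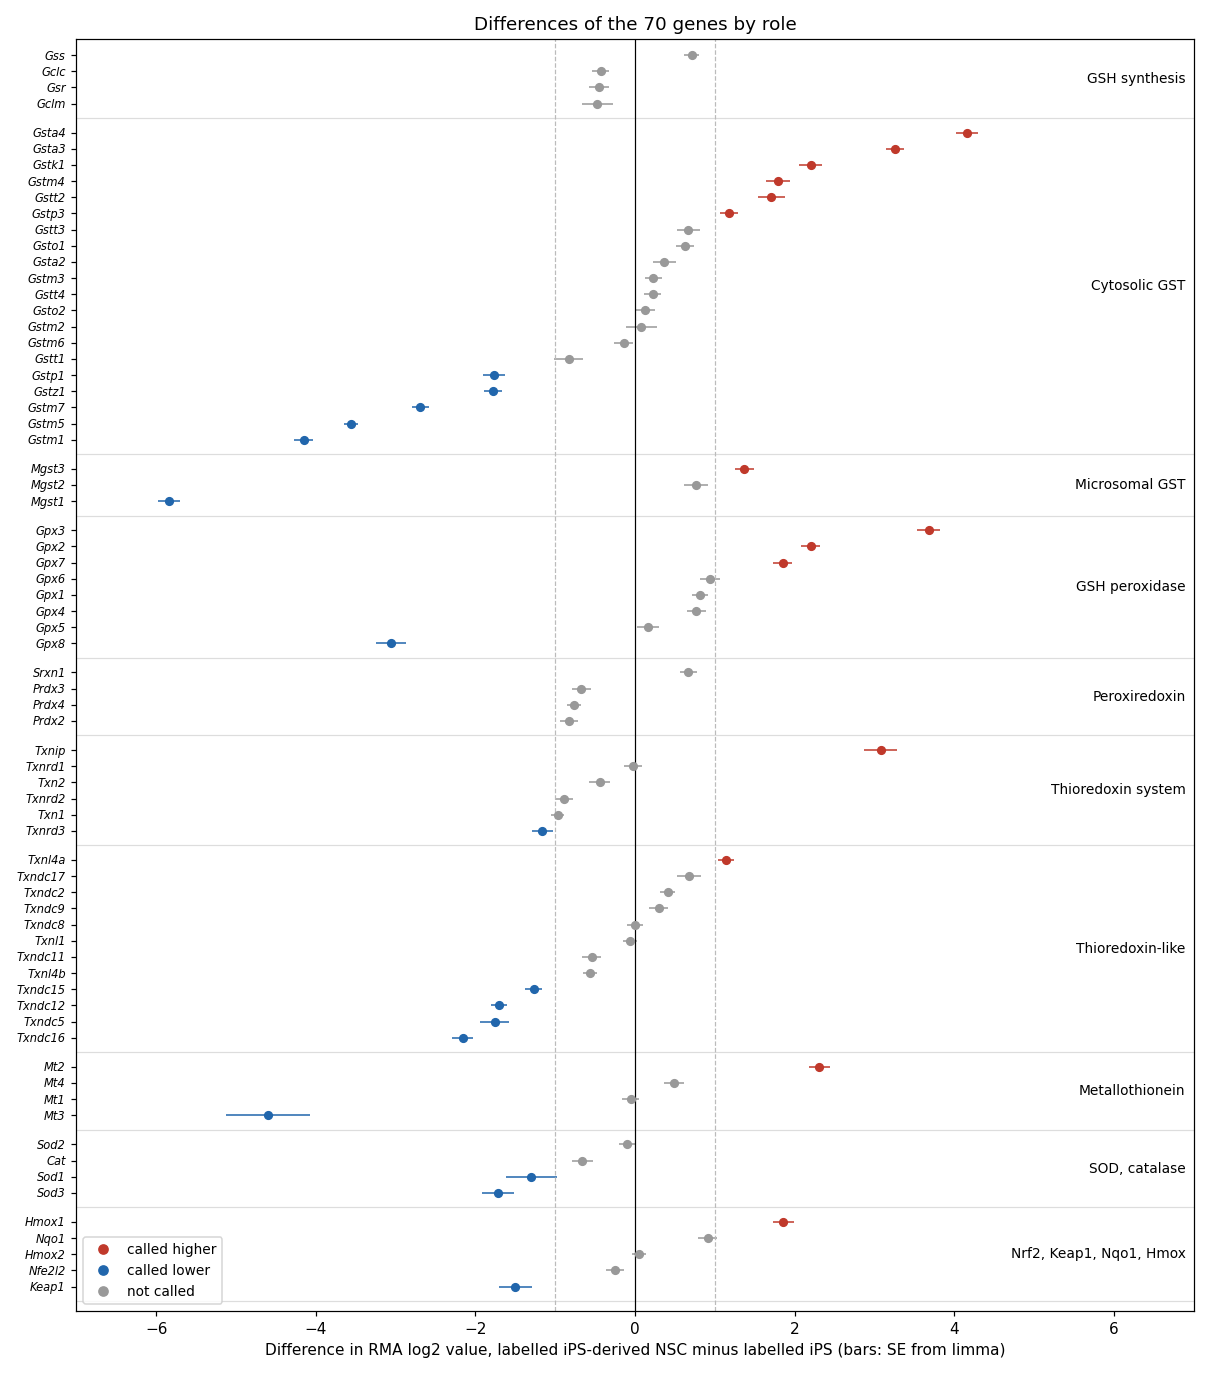
Difference in RMA log2 value, arrays labelled iPS-derived NSC minus arrays labelled iPS (3 against 3 arrays), for each of the 70 genes on the horizontal axis, grouped by role; points are the difference, bars the SE from limma, and dashed lines mark 2-fold. Red genes were called higher (14), blue lower (16) and grey neither; the differences run from -5.84 for Mgst1 to 4.16 for Gsta4, and the synthesis and peroxiredoxin groups hold no called gene.

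By their brightest probe sets, the genes that make and recycle glutathione stayed under 2-fold. Of 4 measured, 0 were called in any comparison, though by limma all 4 had an adjusted p under 0.05 between the arrays labelled iPS-derived NSC and those labelled iPS. Gclc, the catalytic subunit of the rate-limiting ligase, read 10.23, 10.19 and 10.14 in the arrays labelled iPS, 9.62, 9.76 and 9.89 in those labelled iPS-derived NSC, and 10.13, 9.98, 10.24 and 10.35 in brain NSC. The arrays labelled iPS-derived NSC were the lowest without overlap, by 0.43 ± 0.11 (SE) from those labelled iPS (limma adjusted p = 0.00419) and 0.42 ± 0.10 from brain NSC. The choice of probe set mattered here: the brightest one can cross-hybridise, and without such probe sets Gclc differed by -1.33 from the arrays labelled iPS and was called. That other probe set was nearly as bright (mean over all arrays 10.0 against 10.05). It gave 0.98 between the arrays labelled iPS and brain NSC, and -0.35 between those labelled iPS-derived NSC and brain NSC.

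Gclm, the modifier subunit of the ligase, read 10.17, 10.91 and 10.52 in the arrays labelled iPS, against 9.52, 9.36, 9.56 and 10.07 in brain NSC and 10.02, 9.96 and 10.20 in those labelled iPS-derived NSC. The arrays labelled iPS lay above all brain NSC arrays, by 0.90 ± 0.18 (limma adjusted p = 0.00343), under 2-fold; without brain NSC replicate 4, the highest of its group, the difference was 1.05 and was called, and without labelled iPS replicate 1 it was 1.09. The dimmer probe set of Gclm gave -0.26 there. For the arrays labelled iPS-derived NSC it gave -0.89 from those labelled iPS and -1.16 from brain NSC, where the brightest gave -0.47 and 0.43. Gsr was above every brain NSC array in the arrays labelled iPS by its brightest probe set, by 0.59 ± 0.11, but its other probe set gave -0.31. Gss was highest in the arrays labelled iPS-derived NSC, which exceeded those labelled iPS by 0.71 ± 0.09. That probe set can cross-hybridise. The other Gss probe set was nearly as bright (mean over all arrays 7.34 against 7.37) and gave only 0.11 over either group. The size of the Gss difference thus depends on the probe set.

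Glutathione transferases held the widest spread. Of 20 soluble transferases, 6 were higher and 5 lower in the arrays labelled iPS-derived NSC than in those labelled iPS, and 5 higher and 4 lower than in brain NSC; 0 were called between the arrays labelled iPS and brain NSC, where 4 had a limma adjusted p under 0.05. Gsta4, an alpha class transferase that removes the lipid peroxidation product hydroxynonenal, read 12.97, 12.97 and 13.08 in the arrays labelled iPS-derived NSC, 8.85, 8.80 and 8.90 in those labelled iPS, and 9.97, 9.82, 9.71 and 9.28 in brain NSC. The 3 groups did not overlap, and the arrays labelled iPS-derived NSC stood 17.9-fold above those labelled iPS (4.16 ± 0.14, limma adjusted p = 1.41e-11) and 9.95-fold above brain NSC (3.31 ± 0.13).

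Gsta3, another alpha class transferase, read 6.97, 7.01 and 7.15 in the arrays labelled iPS-derived NSC and between 3.52 and 3.96 on every other array. The latter levels lie under the first quartile of an array's probe sets (4.22 to 4.41), and the values carry no detection calls, so the difference of 3.26 ± 0.11 (limma adjusted p = 1.52e-11) is not an exact fold; differences from any level under 6 are to be read in the same way. Its dimmer probe set gave 0.71. Gstk1, the kappa class enzyme of mitochondria and peroxisomes, also rose from dim levels, from 4.31 ± 0.18 (SD, n = 3) in the arrays labelled iPS to 6.51 ± 0.13 (n = 3), a difference of 2.20 ± 0.15. The remaining rises over the arrays labelled iPS were smaller, at 1.79 for Gstm4, 1.71 for Gstt2 and 1.18 for Gstp3.

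Of the 7 mu class transferases, 3 fell and 1 rose between the arrays labelled iPS-derived NSC and those labelled iPS. Gstm1 read 12.03, 12.03 and 12.05 on the arrays labelled iPS, 11.57, 11.67, 11.65 and 12.04 on those of brain NSC, and 7.87, 7.95 and 7.83 in those labelled iPS-derived NSC, which were lower than every other array. The difference from the arrays labelled iPS was -4.15 ± 0.12, or 17.8-fold (limma adjusted p = 1.65e-12), and that from brain NSC -3.85 ± 0.11. Its brightest probe set can share signal with near-identical Gstm genes; the other 3 probe sets of Gstm1 gave -4.28, -3.09 and -2.00.

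Gstm5 read 11.60, 11.73 and 11.62 in the arrays labelled iPS, 11.43 to 11.61 in brain NSC, and 8.01, 8.12 and 8.14 in those labelled iPS-derived NSC. Again the arrays labelled iPS-derived NSC lay below all others, by 3.56 ± 0.09 (11.8-fold) from those labelled iPS. Gstm7 fell by 2.69 ± 0.11 against the same arrays, but its other probe set gave 0.15. Gstz1, which isomerises maleylacetoacetate in the breakdown of tyrosine, fell by 1.78 ± 0.11.

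Gstp1, the pi class transferase, had a level of its own in each group. It read 13.80, 13.85 and 13.86 on the arrays labelled iPS, 12.85, 12.95, 12.85 and 13.39 on those of brain NSC, and 12.09, 11.93 and 12.17 in those labelled iPS-derived NSC. No array crossed into another group, and brain NSC replicate 4 lay nearest to the arrays labelled iPS. The difference of -1.77 ± 0.14 between the arrays labelled iPS-derived NSC and those labelled iPS was called, while 0.82 ± 0.13 between those labelled iPS and brain NSC (limma adjusted p = 0.000649) was under 2-fold.

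Of the 3 membrane-bound microsomal transferases, 1 rose and 1 fell against each of the other groups. Mgst1, which conjugates glutathione and reduces lipid hydroperoxides at the endoplasmic reticulum and the outer mitochondrial membrane, read 11.76, 11.66 and 11.73 in the arrays labelled iPS, while brain NSC gave 11.95, 11.85, 11.85 and 11.65. In the arrays labelled iPS-derived NSC it read 5.82, 6.21 and 5.61. The first 2 groups overlapped and the third lay far below both, by 5.84 ± 0.14 against the arrays labelled iPS (limma adjusted p = 2.67e-13) and by 5.95 ± 0.13 against brain NSC, with 2 of the 3 arrays under 6. This was the largest difference of any of the 70 genes in these comparisons. A second Mgst1 probe set was dim in all groups, between 3.79 and 3.94, and gave 0.15. Mgst3 rose by 1.37 ± 0.12 against the arrays labelled iPS, a call that the mean over its probe sets did not keep (0.87), and Mgst2 differed by 0.77 ± 0.15, under 2-fold.

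Promoter windows of Mgst1, the transferase that fell most, and Gsta3, which rose from dim levels, are shown because each holds a match to the antioxidant response element core TGACNNNGC, which Nrf2 binds. They were chosen after their values were seen. The windows run from 250 bases before to 50 after a RefSeq start on GRCm38.p6, both strands were searched, and capitals mark the match. Of 32851 mouse promoter windows 12.4% hold this core, and of the 82 windows of members 15.9% do, and a match describes letters only, not a bound site. Mgst1 has a second RefSeq start, whose window holds 0 matches.
Mgst1, chr6:138140277-138140576, plus strand: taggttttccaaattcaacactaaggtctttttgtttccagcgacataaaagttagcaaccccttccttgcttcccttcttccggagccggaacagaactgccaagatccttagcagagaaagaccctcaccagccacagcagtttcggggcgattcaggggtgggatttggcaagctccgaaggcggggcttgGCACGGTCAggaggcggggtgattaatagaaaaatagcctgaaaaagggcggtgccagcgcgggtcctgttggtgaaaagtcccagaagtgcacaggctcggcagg
Gsta3, chr1:21240335-21240634, plus strand: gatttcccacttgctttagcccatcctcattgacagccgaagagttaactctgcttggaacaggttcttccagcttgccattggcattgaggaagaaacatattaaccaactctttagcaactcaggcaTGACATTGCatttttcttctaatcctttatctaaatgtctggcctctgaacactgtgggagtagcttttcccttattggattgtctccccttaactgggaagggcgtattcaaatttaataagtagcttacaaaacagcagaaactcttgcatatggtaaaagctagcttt

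Of 8 glutathione peroxidase genes measured, 3 rose and 1 fell in the arrays labelled iPS-derived NSC against each of the other groups. Of the 8, 7 lay above 0 in both comparisons, as did 11062 and 11408 of the 18193 genes, and their median differences were 0.87 and 0.91. Gpx3, the secreted peroxidase of plasma, read 8.94, 8.57 and 9.19 in the arrays labelled iPS-derived NSC, 5.08, 5.19 and 5.38 in those labelled iPS, and 5.49, 5.36, 5.49 and 5.54 in brain NSC. The lowest array labelled iPS-derived NSC was above every other array, and the difference from those labelled iPS was 3.68 ± 0.14 (limma adjusted p = 3.60e-11), from a level under the array medians (5.65 to 5.72) and so not an exact fold.

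Gpx2, best known from the gut epithelium, read 8.17, 8.26 and 8.28 in the arrays labelled iPS-derived NSC against 5.93 to 6.10 in those labelled iPS and 5.63 to 6.04 in brain NSC. The arrays labelled iPS-derived NSC were again the highest, by 2.20 ± 0.12. Gpx7 and Gpx8 both act in the endoplasmic reticulum and moved in opposite directions. Gpx7 rose from 4.61 ± 0.15 (SD, n = 3) in the arrays labelled iPS to 6.46 ± 0.18 (n = 3), and Gpx8, at 9.42, 9.36 and 9.51 there against 6.60, 6.54 and 5.99, fell by 3.06 ± 0.19 (8.32-fold). The widely expressed cytosolic Gpx1 and Gpx4, which reduces phospholipid hydroperoxides, differed by 0.81 ± 0.10 and 0.77 ± 0.12, under 2-fold.

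None of the 3 measured peroxiredoxins, nor Srxn1, which repairs overoxidised peroxiredoxin, was called in any of the 3 comparisons, though all 4 had an adjusted p under 0.05 by limma between the arrays labelled iPS-derived NSC and those labelled iPS. Prdx2, cytosolic, read 13.21, 13.28 and 13.19 on the arrays labelled iPS, 12.45, 12.67, 12.56 and 12.91 on those of brain NSC, and 12.44, 12.31 and 12.44 in those labelled iPS-derived NSC. The arrays labelled iPS were the highest, by 0.58 ± 0.11 over brain NSC and 0.83 ± 0.11 over those labelled iPS-derived NSC; with the mean of its probe sets the difference of the arrays labelled iPS-derived NSC from those labelled iPS became -1.2 and was called. The mitochondrial Prdx3 and the secretory pathway's Prdx4 were lowest in the arrays labelled iPS-derived NSC, with differences of -0.67 ± 0.12 and -0.76 ± 0.09 from those labelled iPS. Srxn1 read 6.96, 7.08 and 7.02 in the arrays labelled iPS, lower than the 7.59 to 8.0 of brain NSC and the 7.63 to 7.75 of those labelled iPS-derived NSC, by 0.78 ± 0.11 and 0.67 ± 0.11.

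In the thioredoxin system itself, 1 of 6 genes rose and 1 fell between the arrays labelled iPS-derived NSC and those labelled iPS. Txnip, which binds thioredoxin and limits glucose uptake, read 10.28, 10.42 and 11.12 in the arrays labelled iPS-derived NSC, 7.82, 7.30 and 7.45 in those labelled iPS, and 8.78, 8.44, 8.26 and 8.18 in brain NSC. The groups did not overlap: the arrays labelled iPS were lowest and those labelled iPS-derived NSC highest. The differences were 3.08 ± 0.21 or 8.48-fold (limma adjusted p = 2.06e-08) from the arrays labelled iPS and 2.19 ± 0.20 from brain NSC, and a second probe set gave 2.90 and 2.03. Between the arrays labelled iPS and brain NSC Txnip stood at -0.89 ± 0.20, under 2-fold, but at -1.04 and called without labelled iPS replicate 1.

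Txn1, the cytosolic thioredoxin that Txnip binds, read 13.41, 13.47 and 13.41 in the arrays labelled iPS-derived NSC and between 14.36 and 14.46 on the 7 other arrays. All 3 lay below the rest by a difference of -0.97 ± 0.08 from either group, just under 2-fold, and median-centring of the arrays moved it to -1.02 and -1.0, which were called; its dimmer probe set gave -0.11 and -0.09. Txnrd1, the cytosolic reductase, lay between 11.36 and 11.77 on all arrays and differed by 0.13 or less in size in all 3 comparisons by its brightest probe set. Its dimmer probe sets gave 1.10 and 0.93 between the arrays labelled iPS-derived NSC and those labelled iPS, and -0.83 and -0.57 between those labelled iPS and brain NSC, so whether Txnrd1 differed depends on the probe set. Txnrd3 fell by 1.16 ± 0.13 from the arrays labelled iPS, a call that was not kept with its probe sets averaged (-0.88).

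Of 12 genes of thioredoxin domain or thioredoxin-like proteins, 1 rose and 4 fell between the arrays labelled iPS-derived NSC and those labelled iPS. Txndc5, a protein disulfide isomerase of the endoplasmic reticulum, was the 1 member called between the arrays labelled iPS and brain NSC. It read 10.61, 11.01 and 10.89 on the arrays labelled iPS, 9.48, 10.08, 9.57 and 10.20 on those of brain NSC, and 9.17, 8.97 and 9.11 in those labelled iPS-derived NSC. No groups overlapped, and the difference from brain NSC was 1.01 ± 0.17 (limma adjusted p = 0.00109), with 0.99 from a second probe set. The call was lost without labelled iPS replicate 2 (0.92) or 3 (0.98) and without brain NSC replicate 1 (0.89) or 3 (0.92). It was also lost with quantile normalization (0.98). In these cases the 2-fold limit was the reason. When limma tested it against 1.5-fold, the difference stayed at 1.01 but the adjusted p was 0.569, and the call was lost there too.

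Against the arrays labelled iPS, Txndc16, a protein of the endoplasmic reticulum, fell by 2.16 ± 0.13, Txndc5 by 1.76 ± 0.18 and Txndc12, also of that compartment, by 1.70 ± 0.10. Txndc15 fell by 1.27 ± 0.11 but by only 0.39 with the mean of its probe sets. Txnl4a, a component of the spliceosome rather than an antioxidant enzyme, rose by 1.14 ± 0.10, and by 0.52 with the mean of its probe sets, where its call was lost. Txnl1 read between 12.35 and 12.59 on all arrays by its brightest probe set. Its other probe sets gave 0.52, 0.09 and, for those dim throughout, -0.06 to 0.05 against the arrays labelled iPS.

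Metallothionein genes moved apart. Of 4 members 1 rose and 1 fell in both comparisons with the arrays labelled iPS-derived NSC. Mt2 read 13.11, 13.02 and 13.11 in the arrays labelled iPS-derived NSC, 11.07, 10.50 and 10.73 in those labelled iPS, and 11.61, 11.42, 11.33 and 11.35 in brain NSC. The groups did not overlap, with a difference of 2.31 ± 0.13 or 4.97-fold from the arrays labelled iPS (limma adjusted p = 2.61e-09) and 1.65 ± 0.12 from brain NSC; brain NSC in turn lay above the arrays labelled iPS by 0.66 ± 0.12, under 2-fold.

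Mt3, which was first found as a growth inhibitory factor of brain, ran the other way. It read 6.43, 6.47 and 7.21 in the arrays labelled iPS-derived NSC, 11.04, 11.55 and 11.33 in those labelled iPS, and 9.33, 9.20, 9.32 and 11.79 in brain NSC. Every array labelled iPS-derived NSC was below every other array, while brain NSC replicate 4 lay above the arrays labelled iPS and the other 3 brain NSC arrays below them. The difference between the arrays labelled iPS-derived NSC and those labelled iPS was -4.60 ± 0.53 or 24.3-fold (limma adjusted p = 3.81e-06), and from brain NSC -3.21 ± 0.49. Between the arrays labelled iPS and brain NSC it was 1.40 ± 0.49 with an adjusted p of 0.0621 by limma; without brain NSC replicate 4 it was 2.03 with an adjusted p of 4.47e-06 and was called.

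Mt1 lay between 12.30 and 12.68 on all 10 arrays, and its differences of 0.03, -0.05 and -0.02 in the 3 comparisons were within the spread of the arrays. That probe set can cross-hybridise. The dimmer probe set of Mt1 averaged 6.32 in the arrays labelled iPS, 6.03 in brain NSC and 7.29 in those labelled iPS-derived NSC, a difference of 0.97 from the former and 1.26, called higher, from brain NSC. Whether Mt1 differed therefore depends on the probe set. Mt4, known from stratified epithelia, was dim throughout, between 3.83 and 4.53.

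The promoter windows of Mt1, Mt2 and Mt3 are shown because these neighbours had different patterns. Capitals mark matches to the metal response element cores TGCACNC and TGCGCNC, to which the zinc sensor Mtf1 binds, and in Mt2 also 1 match to TGACNNNGC; both strands were searched and no matches overlapped. Mt2 holds 4 metal response cores, Mt1 3 and Mt3 1. Of the 32851 windows 25.7% hold at least 1 of these cores, 1.97% hold 3 or more and 0.517% hold 4 or more, while 28.0% of the 82 member windows hold at least 1. In 62 of the 70 members a window was matched by symbol.
Mt1, chr8:94178839-94179138, plus strand: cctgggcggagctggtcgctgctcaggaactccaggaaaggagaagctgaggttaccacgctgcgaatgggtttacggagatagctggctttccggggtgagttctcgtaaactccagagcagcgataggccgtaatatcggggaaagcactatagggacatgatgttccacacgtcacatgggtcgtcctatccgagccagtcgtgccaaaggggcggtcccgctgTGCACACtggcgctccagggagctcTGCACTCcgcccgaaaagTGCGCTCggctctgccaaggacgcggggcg
Mt2, chr8:94172368-94172667, plus strand: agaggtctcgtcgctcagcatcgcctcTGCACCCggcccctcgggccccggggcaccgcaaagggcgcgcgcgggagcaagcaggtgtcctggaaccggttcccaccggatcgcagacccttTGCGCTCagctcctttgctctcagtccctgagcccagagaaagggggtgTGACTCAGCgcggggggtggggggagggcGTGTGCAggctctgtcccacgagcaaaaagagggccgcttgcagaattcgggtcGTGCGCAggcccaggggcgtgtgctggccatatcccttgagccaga
Mt3, chr8:94152357-94152656, plus strand: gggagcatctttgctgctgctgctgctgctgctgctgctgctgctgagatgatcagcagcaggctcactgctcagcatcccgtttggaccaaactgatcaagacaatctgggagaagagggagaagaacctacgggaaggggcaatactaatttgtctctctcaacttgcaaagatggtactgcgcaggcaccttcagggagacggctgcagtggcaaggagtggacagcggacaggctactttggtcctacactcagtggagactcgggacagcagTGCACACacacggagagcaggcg

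**Figure D2:**
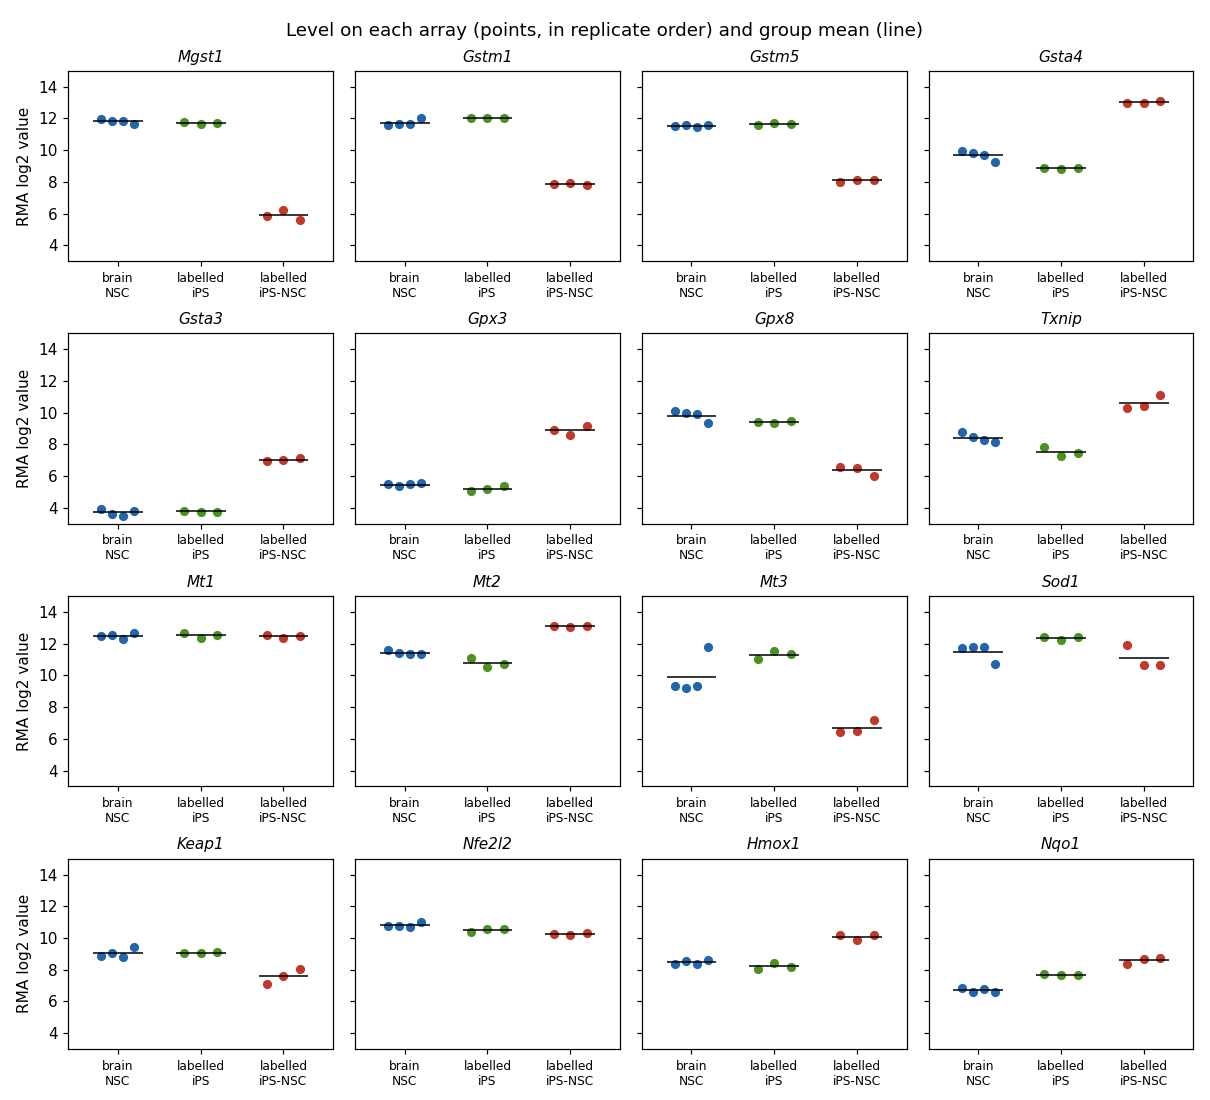
RMA log2 value (vertical axis) of 16 of the genes on each array; points stand in replicate order within brain NSC (blue, 4), arrays labelled iPS (green, 3) and arrays labelled iPS-derived NSC (red, 3, written labelled iPS-NSC), and lines are group means. Mgst1, Gstm1, Gstm5, Gpx8 and Mt3 are lowest, and Gsta4, Gsta3, Gpx3, Txnip, Mt2 and Hmox1 highest, in the arrays labelled iPS-derived NSC; brain NSC replicate 4 stands apart in Mt3 at 11.79.

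Superoxide dismutases and catalase, which remove superoxide and hydrogen peroxide, held 2 called falls and 0 rises of 4 genes between the arrays labelled iPS-derived NSC and those labelled iPS. Sod3, the extracellular dismutase, read 6.62, 7.09 and 6.40 on the arrays labelled iPS, 5.83, 5.96, 5.83 and 6.62 on those of brain NSC, and 5.03, 4.97 and 4.94 in those labelled iPS-derived NSC, which were the lowest of all. The differences were -1.72 ± 0.20 (limma adjusted p = 5.38e-06) from the arrays labelled iPS and -1.08 ± 0.19 from brain NSC, the latter -0.89 and not called without brain NSC replicate 4; its dimmer probe set gave -0.56 and -0.41. Sod2, the mitochondrial dismutase, lay between 11.16 and 11.65 on all arrays by its brightest probe set. The dimmer probe sets of Sod2 gave 0.14, -0.49 and -0.15 from the arrays labelled iPS and -0.23, -0.76 and -0.14 from brain NSC. Cat fell short of 2-fold at -0.66 ± 0.13 from the arrays labelled iPS and -0.94 ± 0.13 from brain NSC, the latter -1.04 and called without brain NSC replicate 4 and -1.0 and called without labelled iPS-derived NSC replicate 2.

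Sod1, the cytosolic dismutase, gave no agreed direction. Its brightest probe set read 12.44, 12.23 and 12.44 in the arrays labelled iPS, 11.89, 10.67 and 10.64 in those labelled iPS-derived NSC, and 11.72, 11.78, 11.79 and 10.71 in brain NSC. Labelled iPS-derived NSC replicate 1 was high and brain NSC replicate 4 low for its group. The difference of -1.30 ± 0.32 between the arrays labelled iPS-derived NSC and those labelled iPS was called (limma adjusted p = 0.00312), but that probe set can cross-hybridise, and the others gave 0.13, -1.41, 1.27 and, for one dim throughout, 0.09.

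Of the regulators and Nrf2-responsive enzymes, Nfe2l2 itself lay between 10.17 and 11.03 on all arrays and was called in no comparison (-0.25 ± 0.11 from the arrays labelled iPS and -0.57 ± 0.10 from brain NSC for those labelled iPS-derived NSC). A dim second probe set of Nfe2l2 gave 0.38 and 0.53. Keap1 read 7.08, 7.59 and 8.06 in the arrays labelled iPS-derived NSC, 9.05, 9.08 and 9.11 in those labelled iPS, and 8.84, 9.04, 8.82 and 9.45 in brain NSC. The arrays labelled iPS-derived NSC were lowest without overlap, by 1.5 ± 0.21 (limma adjusted p = 2.92e-05) and 1.46 ± 0.20, and a second probe set gave -1.62 and -1.16.

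Hmox1, which degrades heme, read 10.19, 9.89 and 10.16 in the arrays labelled iPS-derived NSC, 8.07, 8.43 and 8.15 in those labelled iPS, and 8.35, 8.55, 8.35 and 8.60 in brain NSC. The arrays labelled iPS-derived NSC were all above the rest, by 1.86 ± 0.13 or 3.64-fold from those labelled iPS (limma adjusted p = 1.51e-08) and 1.62 ± 0.12 from brain NSC. Nqo1, a quinone reductase, had 3 separate levels, at 6.58 to 6.87 in brain NSC, 7.65 to 7.76 in the arrays labelled iPS and 8.38 to 8.75 in those labelled iPS-derived NSC. The steps between neighbouring groups were 0.98 ± 0.11 and 0.91 ± 0.12, each under 2-fold with a limma adjusted p of 6.49e-05 and 1.17e-05, and the whole difference of 1.89 ± 0.11 was called. Calls of these steps depended on single arrays: the first was 1.03 without brain NSC replicate 1 and 1.00 without replicate 3, both called, and the second 1.02 and called without labelled iPS-derived NSC replicate 1, as it was with quantile normalization (1.12). Hmox2, the constitutive heme oxygenase, differed by 0.31 or less in size in every comparison.

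Called rises and falls lay within 1 gene cluster in the Gstm, Mt and Gstp families. By RefSeq's gene order on GRCm38.p6, the Gstm genes of chromosome 3 lie as Gstm5, Gstm7, Gstm6, Gstm3, Gstm2, Gstm1 and Gstm4, with 0 other coding genes between them. With the arrays labelled iPS-derived NSC set against those labelled iPS, Gstm5, Gstm7 and Gstm1 fell, Gstm4 rose, and Gstm6, Gstm3 and Gstm2 stood at -0.14, 0.23 and 0.08. On chromosome 8 the order is Mt4, Mt3, Mt2 and Mt1, with the fall of Mt3 beside the rise of Mt2. Gstp1 and Gstp3 on chromosome 19, on either side of Gstp2, fell by 1.77 and rose by 1.18. No Gstt, Gsto or Gsta gene was called lower there. On chromosome 10, Gstt2 rose by 1.71, while Gstt1, not next to it, stood at -0.83, under 2-fold, or at -1.08 and called without labelled iPS-derived NSC replicate 2. Gsto1 and Gsto2 on chromosome 19 stood at 0.63 and 0.13, and on chromosome 9 Gsta4 rose by 4.16 while Gsta2 stood at 0.37. Probes of such similar genes can share signal, and how far they did was not tested.

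**Figure D3:**
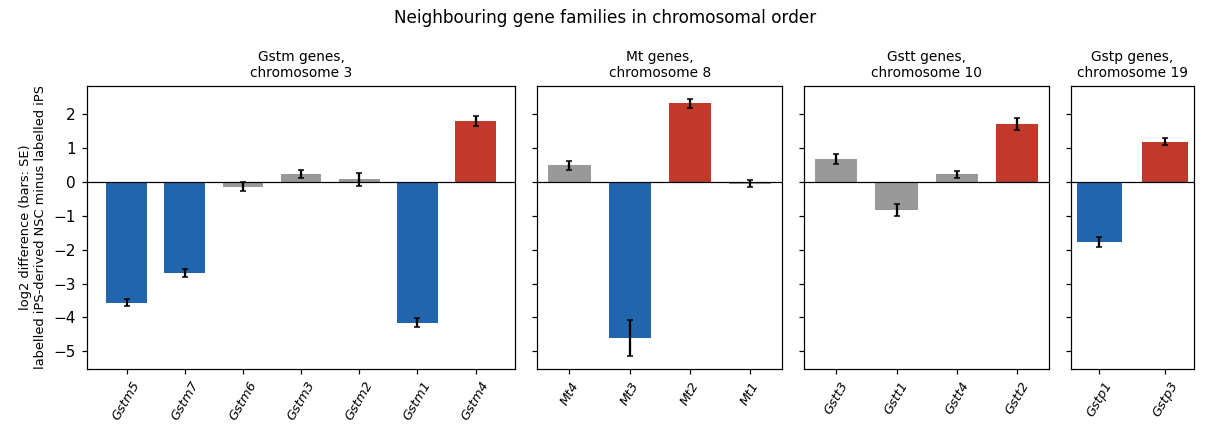
Log2 difference, arrays labelled iPS-derived NSC minus arrays labelled iPS (vertical axis, error bars SE from limma), of the Gstm, Mt, Gstt and Gstp genes in chromosomal order; red was called higher, blue lower and grey neither. Called falls and rises share a panel for Mt3 (-4.60) and Mt2 (2.31), Gstm1 (-4.15) and Gstm4 (1.79), and Gstp1 (-1.77) and Gstp3 (1.18).

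Members on chromosome 8 were taken by position, for the arrays labelled iPS over brain NSC. These 9 genes are Gsr, Prdx2, Nqo1, Hmox1, Mt1, Mt2, Mt3, Mt4 and Txnl4b. Their median difference was 0.54, with 6 of 9 above 0, 5 with an adjusted p under 0.05 by limma (Mt2 of these below 0) and 0 called. The other 61 members had a median of 0.02. All 932 genes of chromosome 8 had a median of 0.18, with 690 above 0, 363 with an adjusted p under 0.05 by limma, 37 called higher and 1 lower. The members' count above 0 is thus no larger a share than that of the chromosome, while their median was larger, at 0.54 against 0.18, over only 9 genes. Without brain NSC replicate 4 the medians were 0.52 for the 9 and 0.07 for the 61, with 7 of the 9 above 0. Txnl4b, a relative of Txnl4a, read 7.38 on each of the arrays labelled iPS against 6.78 to 6.93 in brain NSC, a difference of 0.54 ± 0.08. The values above 0.5 were those of Mt3, Nqo1, Gsr (-0.31 by its dimmer probe set), Prdx2 and Txnl4b, while Mt2 was lower at -0.66 and Mt1, Mt4 and Hmox1 lay between -0.24 and 0.03.

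**Figure D4:**
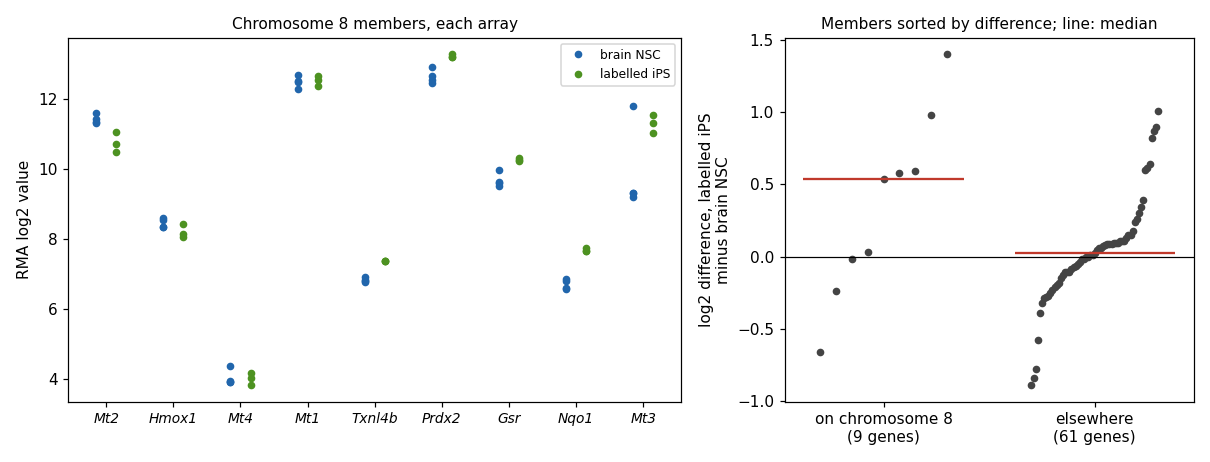
Left, RMA log2 value on each array of the 9 members on chromosome 8 in brain NSC (blue, 4 arrays) and the arrays labelled iPS (green, 3 arrays). Right, the log2 difference of these 9 and of the 61 other members, arrays labelled iPS minus brain NSC, each point 1 gene sorted by value and the red line the median (0.54 and 0.02).

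Brain NSC replicate 4 lay nearer to the arrays labelled iPS in some members and nearer to its own group in others. In 18 members the mean of the arrays labelled iPS differed from that of brain NSC replicates 1 to 3 by at least 0.5. In 10 of these 18 replicate 4 was nearer to the arrays labelled iPS. In the rest, among them Nqo1, Mt2, Txndc5, Txnip and Srxn1, it was nearer to brain NSC replicates 1 to 3. The same count was not made over all genes, so whether the members differ from other genes in this was not tested. The labels give no reason for the position of replicate 4.

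Genes of related redox functions, from a list of 66 of which 61 were measured, are given here beside the members. For the arrays labelled iPS-derived NSC against those labelled iPS 8 were higher and 10 lower, or 29.5% (all genes 25.3%). Against brain NSC 6 were higher and 10 lower, or 26.2% (all genes 25.4%), and between the arrays labelled iPS and brain NSC 0 were higher and 2 lower, or 3.28% (all genes 1.84%). Selenop, a secreted selenium carrier, read 11.92, 12.10 and 12.05 in the arrays labelled iPS, 10.90 to 11.23 in brain NSC, and 6.63, 6.89 and 7.16 in those labelled iPS-derived NSC. These last lay below all others, by 5.13 ± 0.14 or 35.0-fold from the arrays labelled iPS (limma adjusted p = 8.95e-13). Ephx1, the microsomal epoxide hydrolase, fell by 4.79 ± 0.14 and Msrb3, a methionine sulfoxide reductase, fell by 2.93 ± 0.15.

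Among the rises, Cth, which makes cysteine from cystathionine and so feeds glutathione synthesis, read 9.44, 9.65 and 9.49 in the arrays labelled iPS-derived NSC against 6.59 to 6.9 on all others. It was 6.97-fold above the arrays labelled iPS (2.80 ± 0.11). Sephs2, of selenocysteine synthesis, rose by 2.22 ± 0.22 and Chac1, which degrades glutathione, by 2.14 ± 0.15. Between the arrays labelled iPS and brain NSC the called genes were Sesn3, a stress-responsive sestrin, at -1.87 ± 0.13, and the glutaredoxin Glrx at -1.28 ± 0.15. Sesn3 was lower still in the arrays labelled iPS-derived NSC, where it fell by 3.46 ± 0.13 from brain NSC. Glrx read 9.53, 9.62 and 9.37 there, within the 9.16 to 9.94 of brain NSC and above the 8.21 to 8.39 of the arrays labelled iPS.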

How the data were processed

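Total RNA of 10 samples, 1 microgram each, was hybridised to 10 Affymetrix arrays. The authors deposited a log2 value for each probe set, computed by RMA in Bioconductor per the labels and the submitters' processing notes (version: not given in the sources used here). This makes the arrays' distributions alike, so a shift shared by most genes is largely removed, and dim differences are compressed. The number of arrays limits the precision.

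Of 45101 probe sets, 34945 carried 1 gene symbol in the platform annotation, 932 carried several, and 64 were controls, which were left out. The 18193 genes were each represented by their brightest probe set. Of the probe sets with several symbols, which were not used, 6 include a member. The 70 members had 129 probe sets, and 35 had more than 1. Promoters and gene order came from RefSeq (GRCm38.p6).

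Groups were taken from the sample titles. limma 3.58.1 (R 4.3.3; lmFit, eBayes) was fitted over all 10 arrays in 3 groups, with 7 residual and 5.95 prior degrees of freedom, two-sided p values, and Benjamini-Hochberg adjustment over 18193 genes; it was tested on simulated data. Figures were drawn in matplotlib 3.10.9 with numpy 2.4.6 and pandas 2.3.3 under Python 3.11.15. The alternatives were 19, of probe set choice, scaling, filter, samples, variance, threshold, block and arrays left out.

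The members and lists were chosen with earlier results of these data known. The text names Mt1, Mt2, Mt3, Nfe2l2, Keap1, Gclc, Gclm, Gss, Gsr, Nqo1, Hmox1, Srxn1, Cat, Sod1, Sod2, Sod3 and Txnip in any case, the 3 called members of largest difference in each role, the 3 largest called rises and falls of the related genes, and 4 marker genes. Others named were chosen after their values were seen.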

Additional observations from a re-analysis of the deposited data

Results flagged for a closer look

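In brain NSC, the 1 group of more than 3 arrays, a single array stood far from the others in 7 of 70 members, where chance gives about 1 in 20. The share over all genes was not counted. Replicate 4 also stood apart over all genes, so the 7 are not read as a trait of the members. The number given is the gap to the nearest other array divided by the range of the group. Replicate 4 was the array in 5 of the 7: Mt3 (0.9503; 11.79 against 9.20 to 9.33), Mt4 (0.9236; 4.36 against 3.91 to 3.94), Sod1 (0.9339; 10.71 against 11.72 to 11.79), Nfe2l2 (0.8735; 11.03 against 10.70 to 10.74) and Sod3 (0.8343; 6.62 against 5.83 to 5.96). Replicate 1 was the array in Gstk1 (0.9825; 3.83 against 4.35 to 4.36) and Gstt2 (0.9105; 3.68 against 4.09 to 4.13), both dim genes. Among 65 other genes, 4 had such an array. They were Sesn2 (0.9352, replicate 4, 7.73 against 7.43 to 7.45), Nfe2l1 (0.8947, replicate 4, 9.72 against 9.01 to 9.08), Sepsecs (0.9042, replicate 2, 7.64 against 7.32 to 7.35) and Abcc4 (0.8294, replicate 3, 9.0 against 9.18 to 9.22). Nfe2l1 encodes a relative of Nrf2 and Sesn2 a stress-responsive sestrin.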

How the results depend on the processing

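Of 57 called member differences over the 3 comparisons, 47 kept their direction and call under each of the 19 alternatives that tested their gene. Another 10 lost the call under 1 or more. Of these, 1 turned its sign: Sod1 between the arrays labelled iPS-derived NSC and those labelled iPS, at 0.13 without cross-hybridising probe sets. The filter of dim genes left out genes with a mean under 6. The calls of Gsta3, Gstk1, Gstm4, Gstt2, Gpx7, Gstp3 and Sod3 were thus not tested under it. Of 153 uncalled differences 21 were called under 1 or more, with a turned sign for Mt1 against brain NSC (1.26 without cross-hybridising probe sets). Among related genes Bach2 turned sign against brain NSC with the mean of the probe sets (-1.07). Members called between the arrays labelled iPS and brain NSC (1) became 0 with quantile normalization and when tested against 1.5-fold, and spanned 0 to 3 with arrays left out (0 to 3 higher and 0 to 1 lower). Without dim genes, 51 members were tested. For the arrays labelled iPS-derived NSC, 8 were higher and 15 lower against those labelled iPS, and 9 higher and 11 lower against brain NSC. Of all genes left, 1295 were higher in the first of these comparisons. The number of genes left by the filter is not given here, so no share of all genes stands beside these counts. All genes called between the arrays labelled iPS and brain NSC (335) numbered 223 (110 higher) with the mean of the probe sets, 183 (80 higher, 103 lower) when tested against 1.5-fold, and 296 to 537 (141 to 332 higher) with arrays left out, the most without brain NSC replicate 4. Deviations of same-numbered arrays from their group means correlated between -0.21 and 0.133. Differently numbered arrays were not compared in this way, so whether same-numbered arrays share a culture or animal was not tested. With the replicate number as a block, 3 members and 537 genes (332 higher) were called between the arrays labelled iPS and brain NSC, where brain NSC replicate 4, without a partner, adds nothing. No probe set carries a detection call, so differences from dim levels are limited by background, and the cause of these shifts was not tested.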
